A study of Mus musculus with 8 samples.

Results

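The genes described here are 34 genes of sterol and fatty acid metabolism, chosen by symbol: the enzymes that make cholesterol, the SREBP proteins that switch those enzymes on, the enzymes that make, lengthen and desaturate fatty acids, and the LXR receptors with a pair of cholesterol exporters that they control. They were read in CD8+CD44+CD62L- T cells on 8 Affymetrix mouse arrays. Of the 34 genes, 32 had a probe set (a group of short probes for 1 transcript) that names that gene alone, among 18193 genes represented on the arrays in the same way. *Acat2*, which starts the sterol route, and *Nr1h2*, which encodes LXR beta, were not analysed here.

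The cells came from the lymph nodes (LN) or from the MC38 tumors of female C57BL/6 mice that were injected under the skin with MC38, a mouse colon carcinoma line, at 6 to 8 weeks of age. The 4 groups were LN without irradiation, LN with irradiation, tumor without irradiation and tumor with irradiation. All mice carried a tumor, the LN group included, and nodes that drain the tumor were pooled with nodes that do not. Irradiated mice received 5 Gy to the whole body 5 h before the tissues were taken (IR), and the others received none (no IR). Each group had 2 arrays, numbered 1 and 2 as in the labels, and each array held RNA pooled from 4 mice, so that every p-value here measures the spread between pools. The design names 2 independent experiments, each giving 1 pool to every group with tumor and LN cells taken from the same mice, so this spread includes any difference between experiments. The study asked how T cells differ between tumor and LN and how each responds to IR. Values are log2 intensities as deposited, in which a difference of 1 is a 2-fold change. A gene was called changed, and is said to have risen or fallen, where limma gave an adjusted p under 0.1 together with a 2-fold change or more, that is, a log2 difference of 1 in either direction.

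Sterols are made from acetyl-CoA through mevalonate and squalene. When sterols in the endoplasmic reticulum run low, SCAP carries the SREBP proteins to the Golgi, where they are cut into active transcription factors. INSIG proteins hold SCAP back when sterols are plentiful. SREBP-2, from *Srebf2*, mainly drives cholesterol synthesis and SREBP-1, from *Srebf1*, mainly fatty acid synthesis, while oxidised sterols activate LXR, which raises cholesterol export. T cells that are activated and divide are known to switch on this program for new membrane. SREBP binds sterol regulatory elements in promoters, often beside CCAAT boxes bound by the factor NF-Y, and it can also bind E-boxes.

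Promoter sequence, the 250 bases before and 50 after a RefSeq start site in GRCm38.p6, was given for 26 of the 34 genes. It is shown for the 4 called sterol enzymes that have a window, and for *Hmgcs1*, the 1 member whose window holds the classical element. Each window reads 5′ to 3′ on the strand of its gene, and capitals mark matches on either strand to TCACNCCAC (the sterol regulatory element), CCAAT (shown as ATTGG where the box lies on the opposite strand) and CACGTG (an E-box). No marked matches overlap. Other forms of the sterol regulatory element were not searched for, so a window without a marked one may still hold one.
Hmgcs1: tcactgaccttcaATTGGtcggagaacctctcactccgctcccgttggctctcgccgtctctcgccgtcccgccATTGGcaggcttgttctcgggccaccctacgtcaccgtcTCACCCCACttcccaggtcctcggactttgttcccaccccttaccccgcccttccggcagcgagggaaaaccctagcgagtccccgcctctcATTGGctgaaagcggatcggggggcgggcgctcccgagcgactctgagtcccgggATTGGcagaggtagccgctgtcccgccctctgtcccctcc
Idi1: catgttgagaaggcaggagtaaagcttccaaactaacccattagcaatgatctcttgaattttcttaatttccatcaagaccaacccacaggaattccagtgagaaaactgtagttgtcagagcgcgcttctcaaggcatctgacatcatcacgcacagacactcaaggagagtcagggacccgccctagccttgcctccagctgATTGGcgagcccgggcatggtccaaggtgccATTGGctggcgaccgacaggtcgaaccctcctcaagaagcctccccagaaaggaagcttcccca
Lss: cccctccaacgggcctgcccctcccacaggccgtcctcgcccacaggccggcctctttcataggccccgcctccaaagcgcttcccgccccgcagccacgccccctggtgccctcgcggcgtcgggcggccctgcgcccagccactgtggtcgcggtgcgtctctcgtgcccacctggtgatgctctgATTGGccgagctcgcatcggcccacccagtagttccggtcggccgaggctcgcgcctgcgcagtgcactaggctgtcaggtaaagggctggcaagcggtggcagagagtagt
Cyp51: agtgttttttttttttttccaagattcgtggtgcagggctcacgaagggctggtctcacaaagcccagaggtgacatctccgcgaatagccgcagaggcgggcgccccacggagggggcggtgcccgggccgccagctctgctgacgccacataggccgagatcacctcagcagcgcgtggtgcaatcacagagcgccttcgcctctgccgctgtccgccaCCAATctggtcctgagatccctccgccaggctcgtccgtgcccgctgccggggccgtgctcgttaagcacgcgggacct
Hsd17b7: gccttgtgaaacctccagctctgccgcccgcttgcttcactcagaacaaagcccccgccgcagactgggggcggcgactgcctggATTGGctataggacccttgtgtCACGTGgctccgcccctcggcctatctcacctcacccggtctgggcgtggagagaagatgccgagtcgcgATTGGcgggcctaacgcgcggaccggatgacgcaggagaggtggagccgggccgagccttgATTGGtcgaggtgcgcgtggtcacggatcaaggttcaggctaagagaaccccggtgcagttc

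These windows lie at chr13:119690101-119690400 on the plus strand for *Hmgcs1*, chr13:8885356-8885655 on the plus strand for *Idi1*, chr10:76531355-76531654 on the plus strand for *Lss*, chr5:4104648-4104947 on the minus strand for *Cyp51* and chr1:169969156-169969455 on the minus strand for *Hsd17b7*. The *Hmgcs1* element begins at position -137 from the start site, with a CCAAT box in reverse at -176. Over all 32851 windows of RefSeq promoters, 1.24% held an exact match to TCACNCCAC, 37.4% a CCAAT box and 7.15% the E-box. By gene, 11 of the 12 sterol synthesis members with a window held a CCAAT box in at least 1 of their windows, against 41.1% of 27025 genes, and 7 of the other 14 members did. The E-box was found in *Hsd17b7*, *Sc5d*, *Dhcr7*, *Scap*, *Insig1* and *Abca1*, which is 6 of 26 members against 8.09% of all genes. A match is a description of these letters and not a measured binding site.

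The 2 arrays of a group correlated at 0.966 to 0.993 over genes, and their differences had an SD of 0.42 and 0.57 in LN without and with IR and 0.27 in both tumor groups, so the LN pairs were the more variable. The T cell genes *Cd8a* and *Cd3e* lay between 12.09 and 12.67 and between 12.14 and 12.63 on all 8 arrays, and the mean of 12 T cell identity genes ran from 10.94 on LN IR array 2 to 11.69 on LN array 2 without IR. Among those 12, *Thy1* was at 9.87 and *Cd6* at 9.35 on LN IR array 2, against 10.99 and 10.66 on LN IR array 1. Markers of macrophages and monocytes, however, rose in tumor for 18 of 22 genes without IR and 16 of 22 with IR. Their mean level was 6.45 to 6.95 on the LN arrays, 10.02 and 10.84 in tumor without IR, and 8.78 and 10.13 in tumor with IR. The complement gene *C1qb*, a macrophage marker, averaged 5.17 and 5.37 in LN without and with IR, below the lower quartile of these arrays (5.38 to 5.59), and 11.04 and 9.91 in tumor. Fibroblast markers rose in tumor for 8 and 9 of 15 genes (mean level 5.93 to 6.17 on LN and 7.88 to 8.5 on tumor arrays), and B cell markers fell for 5 of 13 in both comparisons (7.25 to 8.01 on LN and 6.05 to 6.25 on tumor arrays). No epithelial or carcinoma marker rose in tumor apart from *Cdh1* and *Sox9*, among 11 measured. The 17 cell cycle genes averaged 9.95 and 8.86 on LN arrays 2 without and with IR, against 10.19 to 10.74 on the other 6 arrays. In RNA of a sorted pool, a change in the share of a cell type and a change in RNA per cell cannot be told apart, and the part of these other cells in the results below was not tested.

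**Figure D1:**
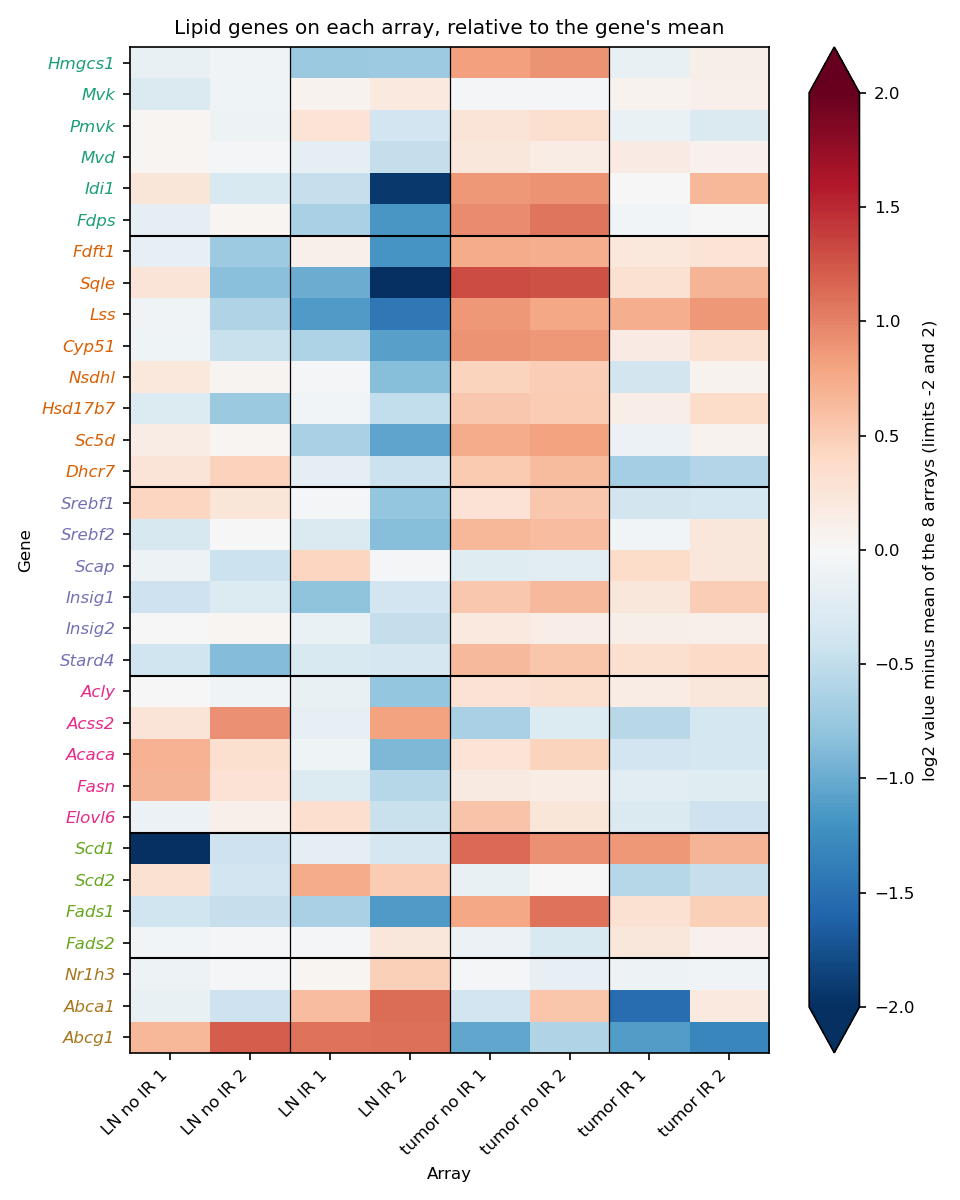
Each row is 1 of the 32 measured lipid genes and each column 1 of the 8 arrays. Colour gives the log2 value minus that gene's mean over the 8 arrays, with colour limits at -2 and 2. Black lines separate the 6 roles, whose gene names share a colour. Averaged over the 14 sterol enzymes at the top, the tumor arrays without IR were the highest of the 8 (9.61 and 9.63) and the LN IR arrays the lowest (8.58 and 8.03).

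Without IR, the sorted pools from tumor held more transcript of 5 sterol enzymes than those from LN. Of the 32 measured members, 8 rose and 1 fell in tumor, so that 9 were called where 5.54% of all genes were (4.5% higher and 1.04% lower). The members that rose were *Fdps*, *Sqle*, *Lss*, *Cyp51*, *Hsd17b7*, *Stard4*, *Scd1* and *Fads1*, and *Abcg1* fell. The median log2 difference was 0.35 over the members and -0.09 over all genes. All 14 sterol synthesis members were higher in value in tumor, and both tumor arrays lay above both LN arrays for each of them. Over the whole list the groups did not overlap for 22 members that were higher and 4 that were lower, where 21.3% and 35.2% of all genes did so. After cyclic loess all 14 sterol members were again higher in tumor, with a median of 0.95 where the main value was 0.94. Scaling to T cell identity genes gave a median of 1.16. It moves all genes by the same amount, here upward, so it could not turn these signs.

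Among the 6 mevalonate enzymes only *Fdps* was called, while *Hmgcs1* and *Idi1* were of like size. *Fdps*, which makes farnesyl pyrophosphate, measured 7.96 and 8.17 in LN (arrays 1 and 2, without IR unless stated), 7.49 and 6.98 in LN after IR, 9.08 and 9.2 in tumor, and 8.08 and 8.14 in tumor after IR. Every tumor array without IR was above every other array for this gene. It rose in tumor by 1.07 ± 0.20 on the log2 scale (SE, adjusted p = 0.024). *Hmgcs1*, the synthase that makes HMG-CoA, measured 9.73 and 9.81 in LN, 9.13 and 9.15 in LN after IR, 10.7 and 10.78 in tumor, and 9.72 and 9.99 in tumor after IR. Its difference without IR was 0.97 ± 0.15 with an adjusted p of 0.0127, just short of the fold limit, and 3 of its 4 other probe sets were called at 1.02 to 1.17. *Idi1*, the isomerase of the 5-carbon units, was 0.92 higher with a wide SE of 0.47 (adjusted p = 0.381), and *Mvk*, *Pmvk* and *Mvd*, the kinases and decarboxylase between mevalonate and those units, were 0.16 to 0.32 higher and did not pass.

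The steps from squalene to cholesterol held the larger share of the calls: 4 of 8 rose, with a median of 1.09. *Sqle*, the squalene monooxygenase, measured 9.14 and 8.06 in LN, 7.9 and 6.88 in LN after IR, 10.2 and 10.17 in tumor, and 9.2 and 9.57 in tumor after IR. Both tumor groups lay above both LN groups, although the LN pairs were more than 1 log2 unit apart. The rise in tumor without IR was 1.58 ± 0.42, or 3-fold (adjusted p = 0.0917).

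*Lss*, which closes squalene epoxide into lanosterol, measured 10.26 and 9.73 in LN, 9.2 and 8.9 in LN after IR, 11.2 and 11.11 in tumor, and 11.05 and 11.19 in tumor after IR. It was 1.16 ± 0.21 higher in tumor without IR (adjusted p = 0.0226), and its 3 probe sets were all called in this comparison. *Cyp51*, the lanosterol demethylase, measured 8.95 and 8.6 in LN, 8.42 and 7.95 in LN after IR, 9.93 and 9.91 in tumor, and 9.21 and 9.34 in tumor after IR. The lowest tumor array was above the highest LN array, and the rise was 1.15 ± 0.20 (adjusted p = 0.0208). A dimmer probe set of *Cyp51* gave 1.04 without and 1.03 with IR and was called in both. Another gave 0.56 in both comparisons and was not called.

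*Hsd17b7*, a 3-ketosteroid reductase of the pathway, measured 7.89 and 7.42 in LN, 8.1 and 7.67 in LN after IR, 8.7 and 8.67 in tumor, and 8.29 and 8.52 in tumor after IR. It rose by 1.03 ± 0.22 (adjusted p = 0.0436). Dimmer probe sets of the gene gave 1.19 and 1.3, both called, and -0.02, not called. Of the 4 others, *Fdft1*, the squalene synthase, was 1.18 higher but did not pass (adjusted p = 0.167), *Sc5d*, a desaturase near the end of the route, was 0.68 higher (adjusted p = 0.0845) and below the fold limit, and *Nsdhl* and *Dhcr7*, a late demethylating dehydrogenase and the last reductase, were 0.34 and 0.21 higher and did not pass.

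Of the 6 genes of the SREBP system and sterol transport all were higher in value in tumor, and 1 was called. *Srebf2* measured 8.89 and 9.21 in LN, 8.92 and 8.35 in LN after IR, 9.88 and 9.82 in tumor, and 9.16 and 9.44 in tumor after IR. Its difference of 0.80 ± 0.23 without IR did not pass (adjusted p = 0.113). *Insig1*, itself a known SREBP target, measured 8.71 and 8.85 in LN, 8.32 and 8.74 in LN after IR, 9.66 and 9.78 in tumor, and 9.35 and 9.62 in tumor after IR, so that all 4 tumor arrays were above all 4 LN arrays. It was 0.94 ± 0.19 higher without IR (adjusted p = 0.0333), below the fold limit.

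*Srebf1* measured 9.63 and 9.44 in LN and 9.49 and 9.73 in tumor, an overlap with a difference of 0.08 (95% interval -0.51 to 0.66). *Scap* measured 9.68 and 9.34 in LN and 9.54 and 9.55 in tumor, with a difference of 0.04 (95% interval -0.43 to 0.51). *Insig2* measured 8.8 and 8.84 in LN, 8.67 and 8.33 in LN after IR, 9 and 8.94 in tumor, and 8.92 and 8.91 in tumor after IR, and its difference without IR was 0.15, whereas 2 dimmer probe sets of the gene gave 0.79 and 0.78. None of these 3 passed. The called gene was *Stard4*, which encodes a sterol carrier that moves cholesterol between membranes. It measured 9.53 and 9.07 in LN, 9.63 and 9.6 in LN after IR, 10.58 and 10.49 in tumor, and 10.25 and 10.31 in tumor after IR. *Stard4* rose by 1.24 ± 0.18 (adjusted p = 0.00954), while its dimmer probe sets gave 0.95 and 0.99 and were not called.

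Of the 5 genes of fatty acid synthesis and elongation none was called without IR, and their median was -0.15. *Acly*, which makes cytosolic acetyl-CoA from citrate, was 0.34 higher, *Elovl6*, a fatty acid elongase, was 0.42 higher, and *Acaca* and *Fasn*, the carboxylase and synthase at the core of the route, were 0.15 and 0.32 lower in tumor. *Acss2*, which makes acetyl-CoA from acetate, had a log2 fold change of -1.05 and did not pass (adjusted p = 0.177), and a dimmer probe set gave -1.18, also short of the test.

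Of the 4 desaturases, which place double bonds in fatty acyl chains, 2 rose without IR. *Fads1*, the delta-5 desaturase of polyunsaturated fatty acids, measured 8.19 and 8.13 in LN, 7.94 and 7.46 in LN after IR, 9.37 and 9.67 in tumor, and 8.89 and 9.06 in tumor after IR. It rose by 1.37 ± 0.20 (adjusted p = 0.0108), and all tumor arrays were above all LN arrays, although a dimmer probe set of the gene gave -0.48. *Scd1*, a stearoyl-CoA desaturase that makes monounsaturated fatty acids, measured 4.9 and 7.14 in LN, 7.37 and 7.23 in LN after IR, 8.7 and 8.48 in tumor, and 8.42 and 8.24 in tumor after IR. LN array 1 without IR stood more than 2 units under its partner, and its value was below the lower quartile of that array. The rise of 2.57 ± 0.61 (adjusted p = 0.063) has a 95% interval from 1.12 to 4.02, and without that LN array it was 1.45 and still called (adjusted p = 0.0192).

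The other 2 desaturases were not called without IR. *Scd2*, the paralog of *Scd1*, measured 10.6 and 9.92 in LN, 11.04 and 10.8 in LN after IR, 10.14 and 10.31 in tumor, and 9.73 and 9.83 in tumor after IR, and its difference without IR was -0.04. *Fads2*, the delta-6 desaturase, was read by probe sets that disagree: the brightest, used here, gave -0.17, and 2 others gave 1.26 and 1.56, both past the test.

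Of the 3 LXR genes measured, 1 exporter fell. *Abcg1*, an LXR target that passes cholesterol to lipoprotein particles, measured 10.17 and 10.73 in LN, 10.6 and 10.62 in LN after IR, 8.48 and 8.91 in tumor, and 8.39 and 8.21 in tumor after IR. All 4 tumor arrays were below all 4 LN arrays, and the gene fell by 1.75 on the log2 scale without IR (SE 0.23, 3.37-fold, adjusted p = 0.00665). A second probe set gave -1.41 and was also called. *Abca1*, the exporter to lipid-poor apolipoproteins, measured 8.7 and 8.43 in LN, 9.47 and 9.97 in LN after IR, 8.46 and 9.41 in tumor, and 7.32 and 9.04 in tumor after IR. The tumor pairs of *Abca1* were 0.95 and 1.72 apart, with array 2 the higher in both, as it was for the macrophage markers, and no difference passed. *Nr1h3*, which encodes LXR alpha, measured 7.61 and 7.67 in LN, 7.74 and 8.18 in LN after IR, 7.67 and 7.55 in tumor, and 7.61 and 7.63 in tumor after IR, with a difference of -0.03 without IR (95% interval -0.44 to 0.39).

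**Figure D2:**
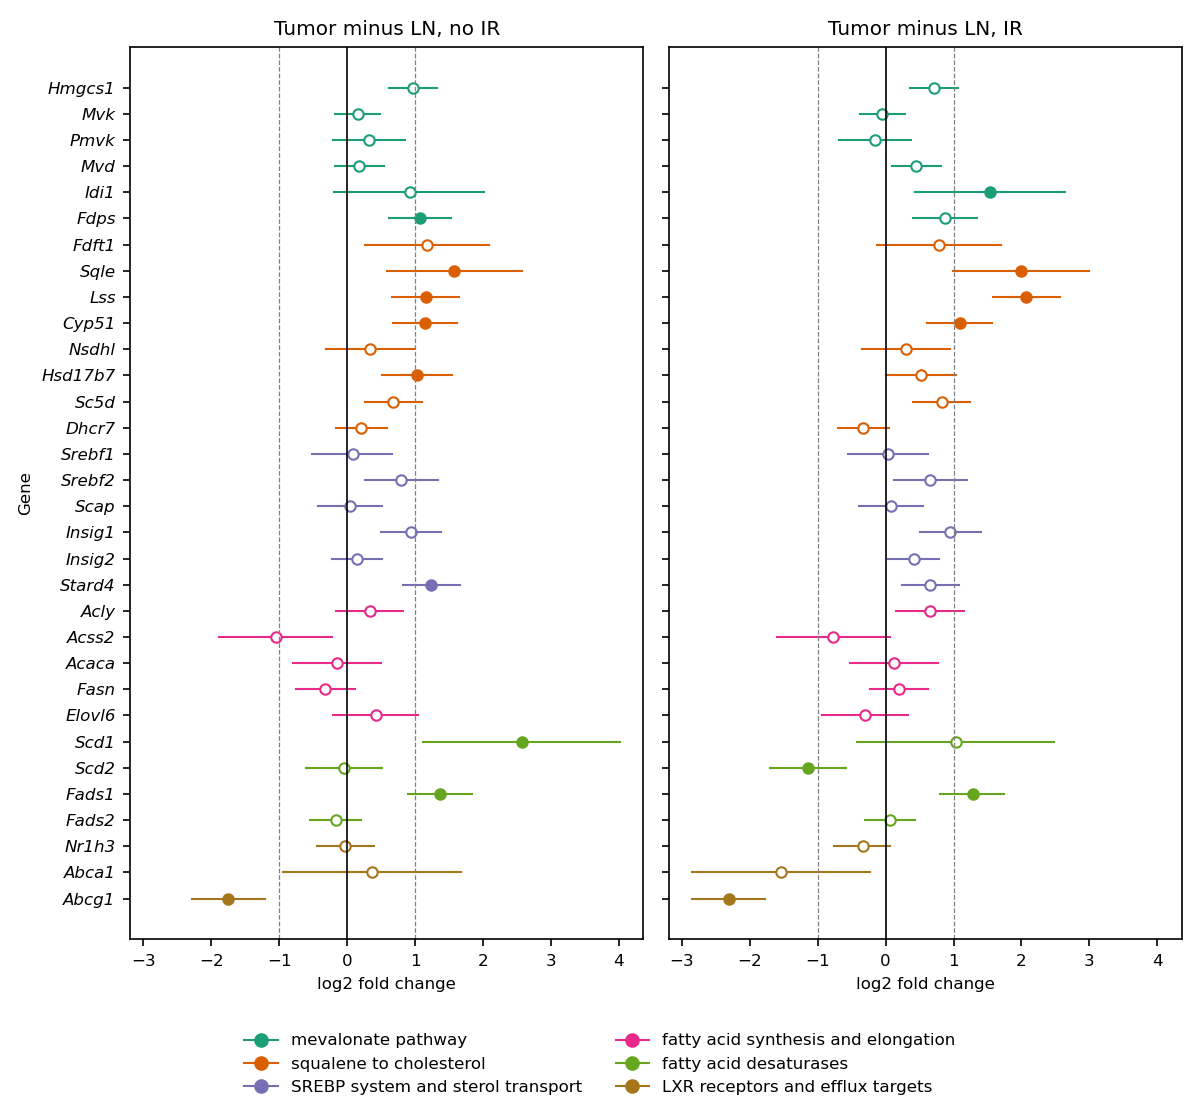
Log2 fold change of tumor over LN (horizontal axis) for the 32 lipid genes (vertical axis), without IR on the left and with IR on the right. Points are limma estimates with 95% confidence intervals from 2 arrays a group, filled where the gene was called, dashed lines mark a log2 fold change of -1 and 1, and colours mark the roles. The filled points right of zero are mostly sterol enzymes and desaturases, and *Abcg1* is the lowest in both panels.

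Leaving out a tumor array without IR reduced the 9 calls to 4 (without array 1) or 2 (without array 2, *Stard4* and *Abcg1*), while the share of all genes called went from 5.54% to 3.79% and 2.97%. Leaving out both tumor arrays numbered 2, which had the higher macrophage markers of their pairs, left 0 members and 1.5% of all genes, a choice made after seeing the data. The sterol synthesis members averaged 9.61 and 9.63 on tumor arrays 1 and 2 without IR while the macrophage markers averaged 10.02 and 10.84. On tumor IR arrays 1 and 2 the sterol members averaged 8.98 and 9.15 and the macrophage markers 8.78 and 10.13, so that both were higher on array 2 and both means were lower than without IR. The part of those cells in these values was not tested.

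With IR, the same question was asked of separate arrays. In tumor, 5 members rose and 2 fell relative to LN, so 7 of 32 were called against 6.8% of all genes (4.8% higher and 2% lower), and the median was 0.43 against 0.06 over all genes. *Sqle* (1.99 ± 0.42, adjusted p = 0.0349), *Lss* (2.07 ± 0.21, adjusted p = 0.0023), *Cyp51* (1.09 ± 0.20, adjusted p = 0.0227) and *Fads1* (1.28 ± 0.20, adjusted p = 0.0132) rose here as well as without IR, which 3.25% of all genes did. The other 2 probe sets of *Lss* gave 0.9 and 0.45 with IR and were not called. *Idi1* was added to the calls, at 9.83 and 9.29 in LN, 9.13 and 7.65 in LN after IR, 10.46 and 10.49 in tumor and 9.6 and 10.25 in tumor after IR. Its difference of 1.53 ± 0.47 (adjusted p = 0.0973) rests on an LN pair that was 1.48 apart, and it lost its call under 13 of 22 alternatives.

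The members that fell in the irradiated tumor pools were *Abcg1* (-2.31 ± 0.23, adjusted p = 0.0022) and *Scd2* (-1.14 ± 0.24, adjusted p = 0.0321). Dimmer probe sets of *Scd2* gave -0.59 and -0.93 and were not called. *Abca1* was -1.54 ± 0.56 and did not pass (adjusted p = 0.149), while 2 dimmer probe sets of the gene gave -1.7 and -2.44 and did. *Hmgcs1* (0.71), *Fdps* (0.87), *Sc5d* (0.83), *Insig1* (0.95) and *Stard4* (0.66) had adjusted p-values of 0.0278 to 0.0691 with differences below the fold limit. A pair of dimmer *Hmgcs1* probe sets did pass, at 1.6 and 1.56, as did dimmer probe sets of *Acss2* (-1.51), *Elovl6* (-1.75) and *Insig2* (1.19). *Dhcr7* lay lower in tumor at -0.33, and its groups did not overlap. The groups did not overlap for 18 members that were higher and 6 that were lower, where 30.1% and 20% of all genes did so.

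With the most variable probe set of each gene 12 members were called with IR (9.71% of all genes), and with the mean of its probe sets 4 (6.15%). Without LN IR array 1 there were 11 calls (13.3% of all genes), without tumor IR array 1 there were 4 (4.05%) and without tumor IR array 2 there were 3 (*Lss*, *Abca1* and *Abcg1*, with 3.12% of all genes). Without both tumor arrays numbered 2 there was 1 (*Abca1*, with 1.01% of all genes).

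Averaged over no IR and IR, a contrast added after seeing the data, 4 tumor arrays were set against 4 LN arrays. *Idi1* (1.23), *Sqle* (1.79), *Lss* (1.61), *Cyp51* (1.12), *Scd1* (1.8) and *Fads1* (1.32) rose and *Abcg1* fell by 2.03, which is 7 calls of 32 against 6.62% of all genes. With no fold limit 18 members passed the adjusted p, against 19.7% of all genes.

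**Figure D3:**
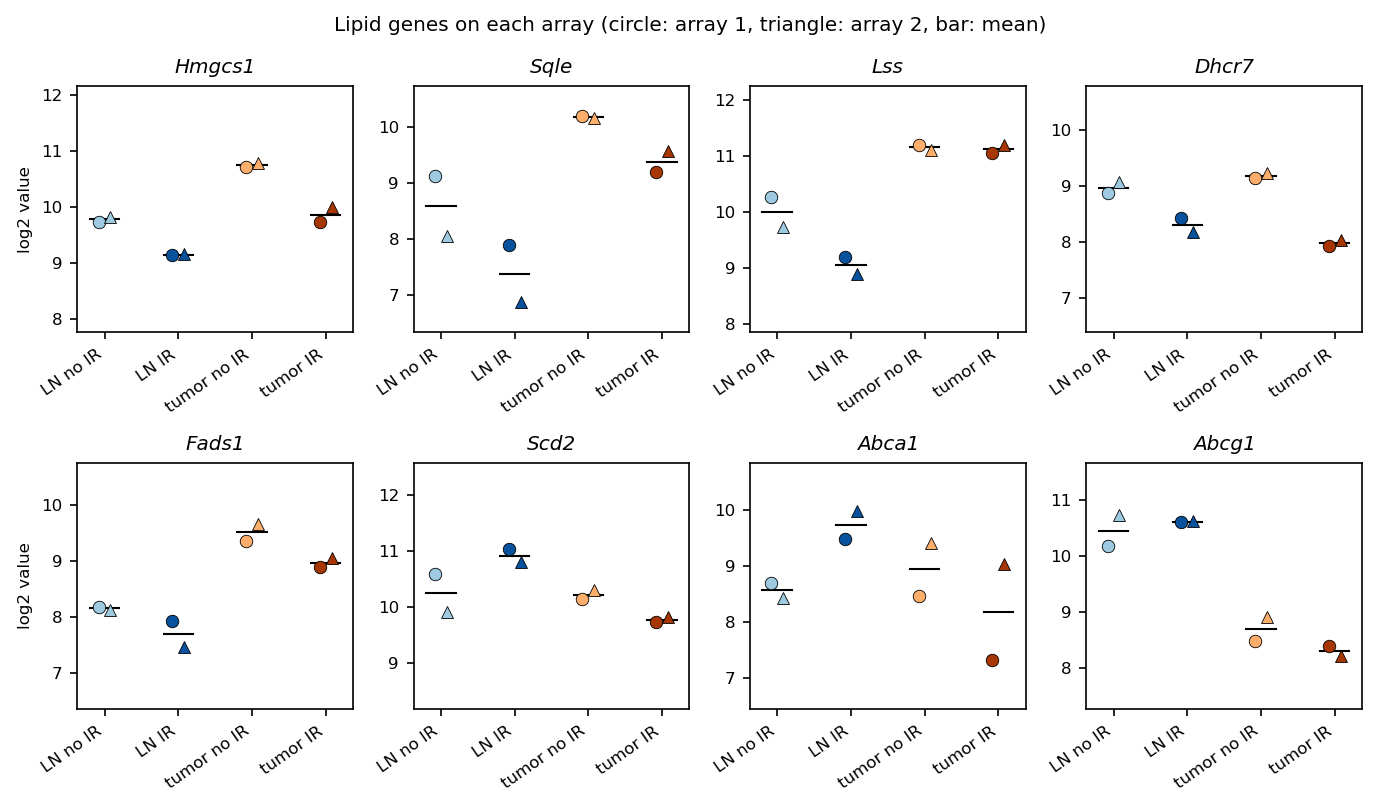
Log2 values (vertical axis, with the same span in every panel) of 8 lipid genes in the 4 groups (horizontal axis). A circle is array 1, a triangle array 2 and a bar the mean of the 2. *Fads1* is higher and *Abcg1* lower on every tumor array than on any LN array, and on the deposited scale *Dhcr7* is lower with IR in both tissues.

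The second question was what 5 Gy did within 5 h. No member was called in either tissue, and on the deposited scale most sterol and fatty acid synthesis genes were lower in value after IR. In LN, limma called 0 of 32 members (1.05% of all genes), 13 had an unadjusted p under 0.05 (14.3% of all genes), and a robust fit called 1, *Scd1* (2.77% of all genes). In LN 22 members were lower, with a median of -0.33 against 0.01 over all genes, a sign that turns (0.13) when the arrays are scaled to T cell identity genes. The groups did not overlap for 16 that were lower, where 19.5% of all genes did so. Differences past 1 in size were those of *Sqle* (-1.21 ± 0.42, adjusted p = 0.267) and *Idi1* (-1.17 ± 0.47, adjusted p = 0.32) among the lower members, and *Scd1* (1.29) and *Abca1* (1.15) among the higher. *Sc5d* alone had an adjusted p under 0.1 (-0.94 ± 0.18, adjusted p = 0.0894), which 1.5% of all genes had.

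Without LN IR array 1 the calls in LN rose from 1.05% to 9.83% of all genes, and 8 members were among them, all lower: *Acaca*, *Fasn*, *Fdps*, *Idi1*, *Lss*, *Sc5d*, *Sqle* and *Srebf1*. LN IR array 2, which then stands alone, also had the lowest cell cycle level, 8.86 against 10.39 on array 1, and the lowest level of the sterol synthesis members, 8.03 against 8.58. Without LN array 2 of the no IR group 1 member was called, *Scd1*, which was higher (0.379% of all genes), and without both LN arrays numbered 2, chosen after seeing the data, there were 3 (*Lss* and *Sqle* lower and *Scd1* higher, with 2.14% of all genes).

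In tumor limma also called 0 of 32 (0.0989% of all genes), 12 had an unadjusted p under 0.05 (16.6% of all genes), and the robust fit called 2, *Dhcr7* and *Fdps* (0.973% of all genes). Here 27 members were lower, with a median of -0.47 against 0.09 over all genes, and 24 were lower with no overlap, where 26% of all genes were. The macrophage and monocyte markers were lower in the same comparison for 21 of 22 genes, with a median of -1.11 and no overlap for 13, though none was called, and their part in the members' values was not tested. *Dhcr7* measured 8.87 and 9.06 in LN, 8.43 and 8.17 in LN after IR, 9.13 and 9.23 in tumor, and 7.93 and 8.02 in tumor after IR. Both IR arrays lay below both no IR arrays in each tissue, and the tumor difference was -1.21 ± 0.16 (adjusted p = 0.108). *Fdps* was -1.03 ± 0.20 (adjusted p = 0.245) and *Hmgcs1* -0.88 ± 0.15 (adjusted p = 0.211). Without LN IR array 1 or LN IR array 2, *Dhcr7* and *Fdps* were called (0.495% of all genes), as they were in a fit of the 4 tumor arrays alone (0.951%). A dimmer probe set of *Acss2* passed as higher after IR (1.27), where the one used gave 0.01.

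**Figure D4:**
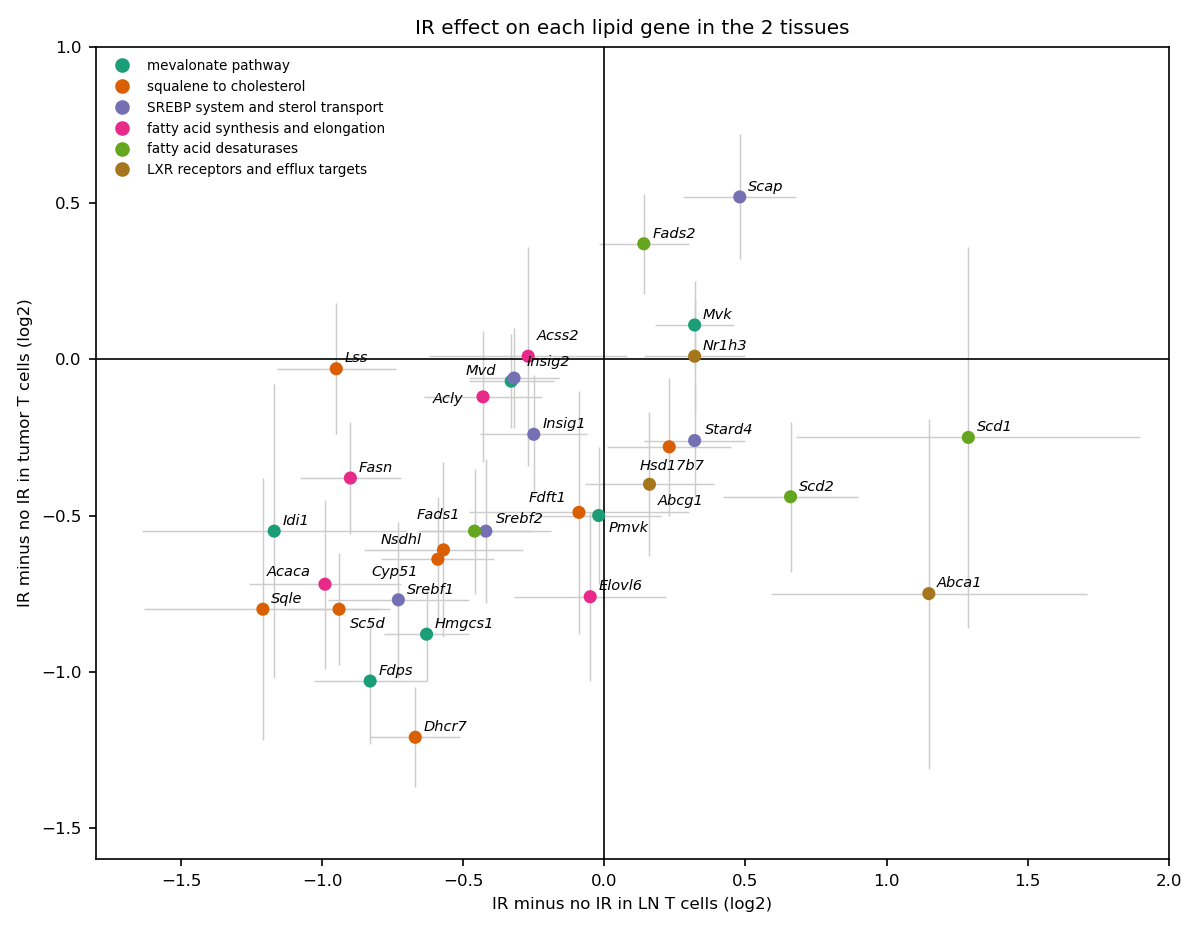
IR minus no IR on the log2 scale for T cells of LN (horizontal axis) and of tumor (vertical axis), for the 32 lipid genes, with standard errors as grey lines and colours for the roles. On this deposited scale the lower left field, where a gene is lower after IR in both tissues, holds 21 of the 32 genes, and *Scap*, *Fads2*, *Mvk* and *Nr1h3* are higher in both.

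The 2 tissues were read on separate arrays, though from the same mice. In value 21 of 32 members (65.6%) were lower after IR in both tissues, against 29.7% of all genes, and 14 of 32 (43.8%) did not overlap in both, against 10.6%. Among the 14 sterol synthesis members 12 were lower in both. These directions depend on the scaling: scaled to T cell identity genes, which were themselves lower after IR in both tissues for 11 of 12 genes, the median of all genes moved to 0.46 in LN and 0.41 in tumor and that of the members to 0.13 and -0.15, so that the sign of the LN median flips. This scaling moves every gene of an array by the same amount. It therefore cannot change where the members lie relative to the median of all genes. Relative to that median, the members' median lay at -0.34 in LN and -0.56 in tumor on the deposited scale, and at -0.2 and -0.39 after cyclic loess. On the deposited scale 22 members in LN and 29 in tumor were below the median gene, and after cyclic loess 19 and 26 were.

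Averaged over LN and tumor, a contrast added after seeing the data, no member was called (0.764% of all genes), since no difference that passed reached the fold limit. With no fold limit 8 of 32 members passed, all lower, where 1.98% of all genes were lower and passed. They were *Dhcr7* (-0.94 ± 0.11, adjusted p = 0.0185), *Hmgcs1* (-0.76 ± 0.11, adjusted p = 0.0305), *Sc5d* (-0.87 ± 0.13, adjusted p = 0.0343), *Fdps* (-0.93 ± 0.14, adjusted p = 0.0366), *Fasn* (-0.64 ± 0.13, adjusted p = 0.0774), *Acaca* (-0.86 ± 0.19, adjusted p = 0.0935), *Cyp51* (-0.62 ± 0.14, adjusted p = 0.0975) and *Srebf1* (-0.75 ± 0.18, adjusted p = 0.0991). The 8 genes include enzymes of both the sterol and the fatty acid route and the gene of SREBP-1. Scaled to T cell identity genes, *Acaca*, *Dhcr7*, *Fdps* and *Sc5d* still passed as lower, where 0.956% of all genes did so, and 6 members passed as higher. This scaling put the median of all genes at 0.44, and the share of all genes that passed as higher was not counted. Those 6 are therefore not read as a result about the members. Leaving out any 1 of the 4 tumor arrays left 0, leaving out LN array 1 or 2 without IR gave 4 and 2, and leaving out LN IR array 1 gave 23. Of these the 4 were all lower, 1 of the 2 was higher, and 3 of the 23 were higher. The share of all genes that passed as lower was 0.0165% to 0.0495% without a tumor array, 0.693% and 0.253% without those LN arrays, and 19.9% without LN IR array 1.

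None of the SREBP regulators passed after IR in either tissue. On the deposited scale *Srebf1* went from 9.63 and 9.44 to 9.17 and 8.42 in LN and from 9.49 and 9.73 to 8.83 and 8.84 in tumor, with no overlap in either tissue and differences of -0.73 and -0.77. *Srebf2* was 0.42 lower in LN, where the arrays overlapped, and 0.55 lower in tumor, where they did not. *Scap* went from 9.68 and 9.34 to 10.21 and 9.76 in LN and from 9.54 and 9.55 to 10.14 and 10 in tumor, higher in both with no overlap, by 0.48 and 0.52 (adjusted p = 0.336 and 0.311 by limma). *Insig1* was 0.25 and 0.24 lower and *Insig2* 0.32 and 0.06 lower. Scaled to T cell identity genes, *Insig1* (0.21 and 0.08) and *Insig2* (0.13 and 0.26) were higher in both tissues and *Srebf2* was 0.04 higher in LN, while *Srebf1* stayed lower (-0.28 and -0.45) and *Scap* higher (0.93 and 0.84). After cyclic loess *Insig2* was 0.06 higher in tumor.

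Whether the IR effect differed between the tissues was tested as an interaction. limma called 0 members and 0% of all genes, and 4 members had an unadjusted p under 0.05 (5.63% of all genes): *Lss*, *Dhcr7*, *Scd2* and *Abca1*. For *Lss* the difference of 0.92 (95% interval 0.22 to 1.61) depends on the probe set, since the one used was -0.03 after IR in tumor and its 2 others were both -0.99. *Abca1* was 1.15 higher after IR in LN and 0.75 lower in tumor, an interaction of -1.9 (95% interval -3.76 to -0.05, adjusted p = 0.782), which both other probe sets shared in sign at -1.86 and -2.39.

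**Figure D5:**
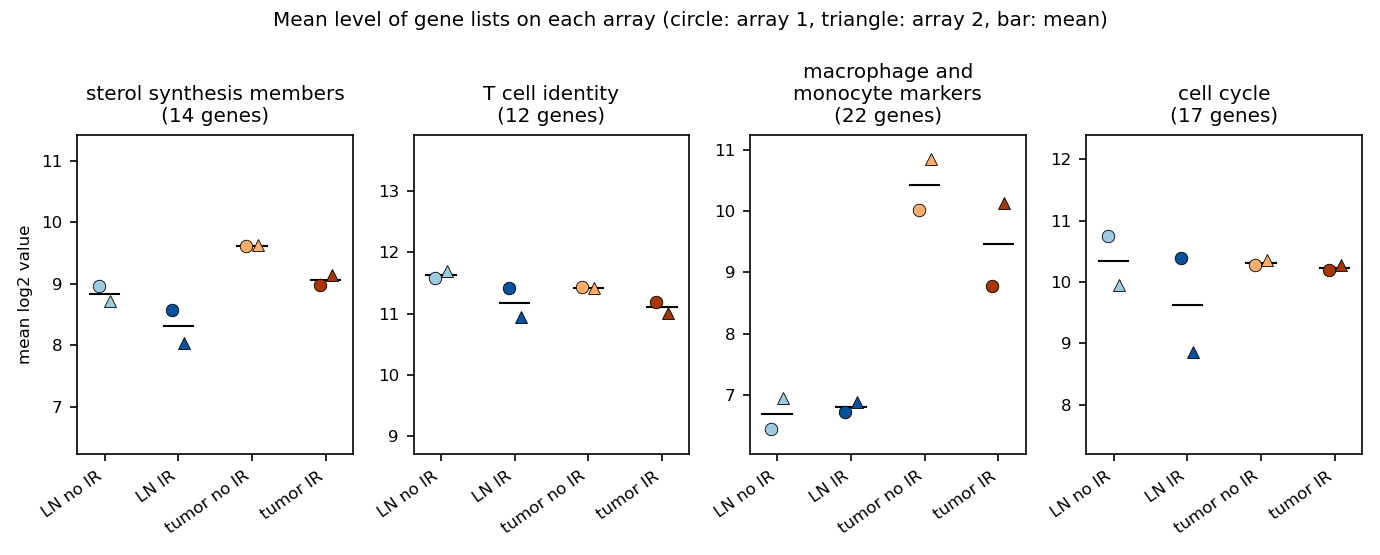
Mean log2 value (vertical axis, with the same span in every panel) over the genes of 4 lists in the 4 groups (horizontal axis), with a circle for array 1, a triangle for array 2 and a bar for the mean. The sterol synthesis members were 9.61 and 9.63 in tumor without IR and lowest, at 8.03, on LN IR array 2, which also had the lowest cell cycle level, while the macrophage and monocyte markers were at 8.78 or more on tumor arrays and at 6.95 or less on LN arrays.

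The neighbouring genes of the pathway were counted from lists written alongside the members, to be read against the 4.5% and 4.8% of all genes called higher in tumor without and with IR. A single call in a list of 6 to 16 genes is not read as a result about that list. Of 6 other cholesterol enzymes 1 rose in tumor without IR, *Msmo1*, a methylsterol oxidase of the steps after lanosterol (1.13 ± 0.22, adjusted p = 0.028), and 0 with IR. Of 6 genes of SREBP cleavage and INSIG turnover none was called in any comparison of tissue or IR. Of 11 genes of sterol uptake and storage 1 rose in both tissue comparisons, *Lrp1*, an endocytic lipoprotein receptor (4.76 ± 0.35 without and 3.12 ± 0.35 with IR). Of 13 LXR partners and other LXR targets, *Apoe*, a lipoprotein component (4 ± 0.32), *Lpl*, lipoprotein lipase (3.21 ± 0.55, with LN arrays at 4.43 and 5.09), and *Ch25h*, cholesterol 25-hydroxylase (1.85 ± 0.24), rose without IR. With IR, *Apoe* (2.76) and *Pltp*, a phospholipid transfer protein (1.29), rose and *Mylip*, a ligase that degrades the LDL receptor, fell (-1.39). *Apoe*, *Lpl* and *Lrp1* are well known in macrophages, and their part in these values was not tested.

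Among 16 other genes of fatty acid and lipid synthesis *Me1*, the malic enzyme that supplies NADPH, rose in tumor in both comparisons (1.74 ± 0.31 and 2.1 ± 0.31, with LN arrays at 5.18 and 5.74 without and 5.21 and 5.27 with IR). *Lpin1*, a phosphatidate phosphatase, was the 1 listed lipid gene that rose after IR, in LN by 1.89 ± 0.16 (adjusted p = 0.00596), with 1.11 in tumor, which was not called. Of 14 genes of fatty acid uptake and oxidation none was called without IR, and with IR *Fabp4*, a fatty acid binding protein, rose in tumor (2.9 ± 0.39, with LN arrays at 4.54 and 5.02). The LN values of *Lpl* without IR and of *Me1* and *Fabp4* with IR lay below the lower quartile of the arrays, where intensity says little about level, so the sizes of these 3 rises are not well measured.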

How the data were processed

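RNA of sorted CD8+CD44+CD62L- T cells was read on 8 Affymetrix whole-genome mouse arrays, 2 in each of 4 groups. The authors normalised the arrays with RMA, whose version the sources used here do not give, and deposited log2 values for 45101 probe sets, which were used as deposited, with no columns left unused. Precision is limited by the number of arrays. Of these, 34945 probe sets carry 1 gene symbol, 932 several and 9160 none in the platform annotation, and 64 are controls. Least squares in limma 3.58.1 (R 4.3.3) fitted group means over 35877 annotated probe sets, with eBayes (4 residual and 3.13 prior degrees of freedom) and Benjamini-Hochberg adjustment. Calls needed both an adjusted p under 0.1 and an absolute log2 difference of 1 or more, the thresholds of the study's methods, whose robust fit is an alternative here and whose overlap with SAM was not applied. Where several probe sets name a gene alone, the one with the highest mean stood for it. The pipeline was tested on simulated data.

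The members and lists were chosen with earlier results of these data known. By rule, every member is named, values on each array are given for called members and SREBP and LXR regulators, and up to 4 called genes per other list. Array values of *Hmgcs1*, *Dhcr7* and *Abca1* were added after seeing the data. Alternatives were other fits, probe set rules, scalings, thresholds and left-out arrays. Promoters are from RefSeq (GRCm38.p6). Figures were drawn with matplotlib 3.10.9.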

Additional observations from a re-analysis of the deposited data

Results flagged for a closer look

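On the deposited scale, for 3 of 32 members (9.38%) both arrays with IR lay above both arrays without IR in LN and below them in tumor, which 1.39% of all genes did, so the direction of the IR difference was opposite in the 2 tissues. The reverse, lower in LN and higher in tumor with no overlap, held for 0 of 32 members and 3.09% of all genes. *Scd2* was 0.66 higher in LN and 0.44 lower in tumor, an interaction of -1.1 on the log2 scale (unadjusted p = 0.0128 and adjusted p = 0.758 by limma). *Scd1* was 1.29 higher in LN and 0.25 lower in tumor, an interaction of -1.54 (adjusted p = 0.782 by limma), and the LN value includes the array at 4.9. *Stard4* was 0.32 higher in LN and 0.26 lower in tumor, an interaction of -0.57 (adjusted p = 0.782 by limma). Another *Stard4* probe set was higher after IR in both tissues (0.81 and 0.3). Scaled to T cell identity genes, the tumor difference was 0.06 for both *Scd1* and *Stard4*, which turns its sign, and -0.12 for *Scd2*. None of the 3 passed the test of the difference between tissues. Groups of 2 arrays were too small to look for single outlying arrays.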

How the results depend on the processing

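Of the 16 called values of single members, each under 22 alternatives, 280 of 352 kept their call, 72 lost it and 0 changed sign. Several alternatives keep the group means and could not change a sign. They include other thresholds, a mean-variance trend and leaving out an array of a group not compared. Dropping the fold limit could not lose a call, so these totals are not a measure of stability. The counts of called members moved more. The count for tumor against LN without IR (9) ran from 2 to 11 when 1 array was left out and was 0 without both tumor arrays numbered 2. With IR (7) it was 12 with the most variable probe set (9.71% of all genes) or no fold limit (12.9%) and 4 with the mean of probe sets (6.15%). It moved in both directions with 1 array left out and was lower without both tumor arrays numbered 2. For IR in LN (0) it was 1 under the robust fit or no fold limit, 0 to 8 with 1 array left out and 3 without both LN arrays numbered 2. For IR in tumor (0) it was 2 under the robust fit (0.973%), array weights (1.1%) or a fit of those 4 arrays alone (0.951%). It was 1 with the mean of probe sets or cyclic loess (0.132% in both). Calls also appeared without an LN IR array or without both LN arrays numbered 2. The interaction (0) gave 1 without both LN arrays numbered 2. The mean tissue effect (7, with 6.62% of all genes) gave 12 with the most variable probe set (8.72%) and 11 scaled to T cell identity genes (7.55%). It gave 18 with no fold limit (19.7%). The count moved in both directions with 1 array left out and was lower without both tumor arrays numbered 2. The mean IR effect (0, with 0.764% of all genes) gave 1 under the robust fit (1.13%) and 8 with no fold limit (3.69%). It also moved with 1 array left out and without both LN arrays numbered 2. Those 8 became 21 under the robust fit, 5 with a mean-variance trend, 0 to 23 with 1 array left out, 12 without both LN arrays numbered 2 and 0 without both tumor arrays numbered 2. The share of all genes called moved too, from 5.54% without IR to between 2.97% and 6.49% and from 6.8% with IR to between 3.12% and 13.3% with 1 array left out. The cause was not tested. With the replicate number as a block, the calls were 10, 8, 0, 0, 0, 7 and 0 in the order above. The shares of all genes called were then 6.05%, 7.33%, 0.874%, 0.0824%, 0%, 6.81% and 0.764% in the same order. The study ran 2 independent experiments, but the labels do not say that the number marks one, and arrays of 1 number deviated together within a tissue (r = 0.43 in LN and 0.43 in tumor) but not across tissues (-0.14 to 0.07), so the pairing was not used. With 2 pools a group precision is low. No difference under the fold limit could be called, and larger ones also failed the adjusted p. An example is *Dhcr7* after IR in tumor (-1.21, adjusted p = 0.108 by limma). A missing call therefore does not mean that a 2-fold change was absent.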
